A study of Mus musculus with 16 samples.

Results

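The effect of ANT008, a peptide antagonist of the vasoactive intestinal peptide receptors (VIP-R), on the T cell receptor β chain (TCRβ) rearrangements of T cells in tumors was examined by setting all mice that received it against all mice that received a scrambled peptide. The comparison held all 16 samples of the series, 8 in the ANT008 arm and 8 in the scrambled peptide arm. Female C57BL/6 mice, 8 to 10 weeks old at the time of the experiments, carried subcutaneous KPC.Luc tumors, a luciferase-expressing line of pancreatic ductal adenocarcinoma, and all 16 were treated from day 6 or 7 with 10 µg of a peptide daily and 200 µg of an antibody every 3 days, for 10 days in total. The ANT008 arm combined 4 mice given ANT008 with isotype IgG (ANT008) and 4 given ANT008 with anti-PD-1 (combination), and the scrambled arm combined 4 mice given the scrambled peptide with IgG (control) and 4 given it with anti-PD-1 (anti-PD-1). Tumors were taken on day 21, each mouse gave 1 sample, and T cells were pulled down on CD90.2 to a stated purity of 80 to 85%. The labels do not say how the mice were caged, so p-values measure the spread between these samples.

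VIP is a neuropeptide that binds the receptors VPAC1 and VPAC2 and is known as a brake on T cell activation. A TCRβ chain is assembled by joining 1 V, 1 D and 1 J gene segment, with nucleotides trimmed and added at the joints, and the joint encodes the third complementarity-determining region (CDR3), which contacts peptide on the MHC molecule. Cells that descend from 1 T cell share 1 rearrangement, so a repertoire dominated by a few rearrangements holds expanded clones, and one in which many rearrangements have similar counts is diverse. PD-1 is an inhibitory receptor on activated T cells.

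Each sample listed its 87-nucleotide TCRβ rearrangements with a template count, the service's estimate of starting molecules. A rearrangement was productive if it was in frame without a stop codon, and clone below means 1 productive nucleotide rearrangement. Productive templates ranged from 7180 to 72588 per sample with a median of 32564. On the log2 scale they averaged 14.74 ± 0.69 in the ANT008 arm (SD, n = 8) and 14.91 ± 0.95 in the scrambled arm, a difference of -0.17 (SE 0.41, exact permutation p = 0.712). All diversity values were therefore also computed at equal depth, as the mean of 20 random draws of 7180 productive templates from each sample. In all 16 samples productive rearrangements were abundant, but the T cell label could not be checked further, because these data hold no gene other than the receptor. Fewer T cells carrying a clone and fewer templates per cell cannot be told apart.

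Rearrangements of the CDR3s described later are printed first, 5′ to 3′, with the CDR3 codons in capitals from the first cysteine to the residue before the closing phenylalanine. The 3 that follow were prominent clones found in both arms.
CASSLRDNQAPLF, most frequent clone of ANT008 replicate 1: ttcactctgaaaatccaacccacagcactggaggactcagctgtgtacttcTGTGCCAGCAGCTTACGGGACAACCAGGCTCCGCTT
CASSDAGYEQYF, most frequent clone of combination replicate 4: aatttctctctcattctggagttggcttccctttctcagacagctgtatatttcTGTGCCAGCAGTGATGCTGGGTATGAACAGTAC
15-residue CDR3 of Trbv16 and Trbj2-7, highest mean share of all: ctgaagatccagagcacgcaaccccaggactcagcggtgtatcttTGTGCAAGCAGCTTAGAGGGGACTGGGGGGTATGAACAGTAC
The next pair are the most frequent clones of an ANT008 mouse and an anti-PD-1 mouse, which encoded the same CDR3 with rearrangements that differed at 1 of 87 nucleotides.
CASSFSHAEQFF, ANT008 replicate 4: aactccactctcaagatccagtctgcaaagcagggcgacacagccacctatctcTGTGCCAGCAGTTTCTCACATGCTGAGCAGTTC
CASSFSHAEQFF, anti-PD-1 replicate 2: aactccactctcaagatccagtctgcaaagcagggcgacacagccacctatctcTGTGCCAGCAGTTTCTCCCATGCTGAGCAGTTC
The last 3 belong to CDR3s that lay mostly or wholly in 1 arm, and each is the most abundant rearrangement of its CDR3. The first was found in 3 mice with 98.4% of the templates of its CDR3, the second in 1 mouse with 115 of 207, and the third in 1 mouse with 3 of 14.
14-residue CDR3 of Trbv13-1 and Trbj2-2, mostly ANT008 arm: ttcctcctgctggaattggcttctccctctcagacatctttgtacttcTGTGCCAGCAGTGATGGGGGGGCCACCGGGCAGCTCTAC
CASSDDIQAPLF, scrambled arm: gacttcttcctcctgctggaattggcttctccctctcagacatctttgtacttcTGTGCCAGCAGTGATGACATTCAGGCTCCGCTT
15-residue CDR3 of Trbv19 and Trbj2-3, ANT008 arm: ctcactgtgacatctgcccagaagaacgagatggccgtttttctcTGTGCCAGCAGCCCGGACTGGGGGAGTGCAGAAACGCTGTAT

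Diversity was compared first. Repertoires of the ANT008 arm averaged a higher entropy and a smaller share of templates in expanded clones than those of the scrambled arm, with both antibodies, but the arms overlapped and no diversity measure passed its test. Shannon entropy, in bits, grows when clones are more numerous or more even. In the ANT008 arm it ran from 8.06 bits through a median of 9.26 to 11.26 bits, and in the scrambled arm from 7.31 through 8.97 to 9.87 bits. The 3 highest values of all 16 were ANT008 mice, combination replicates 1 and 4 and ANT008 replicate 2, while the 2 lowest were controls. Mean entropy was 9.53 ± 1.14 bits against 8.84 ± 0.996 bits (SD, n = 8 in each arm), a difference of 0.690 bits (SE 0.497).

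The test exchanged the peptide labels within each antibody in all 4900 ways, two-sided, for which the smallest possible p is 0.000408. It gave an exact permutation p of 0.169 for entropy, and 0.855 after Benjamini-Hochberg adjustment over the 24 single-value results of this comparison. Within IgG the difference was 0.713 bits and within anti-PD-1 0.667 bits, and the difference between these did not pass a test (exact permutation p = 0.969). At equal depth entropy differed by 0.583 bits (exact permutation p = 0.180).

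**Figure D1:**
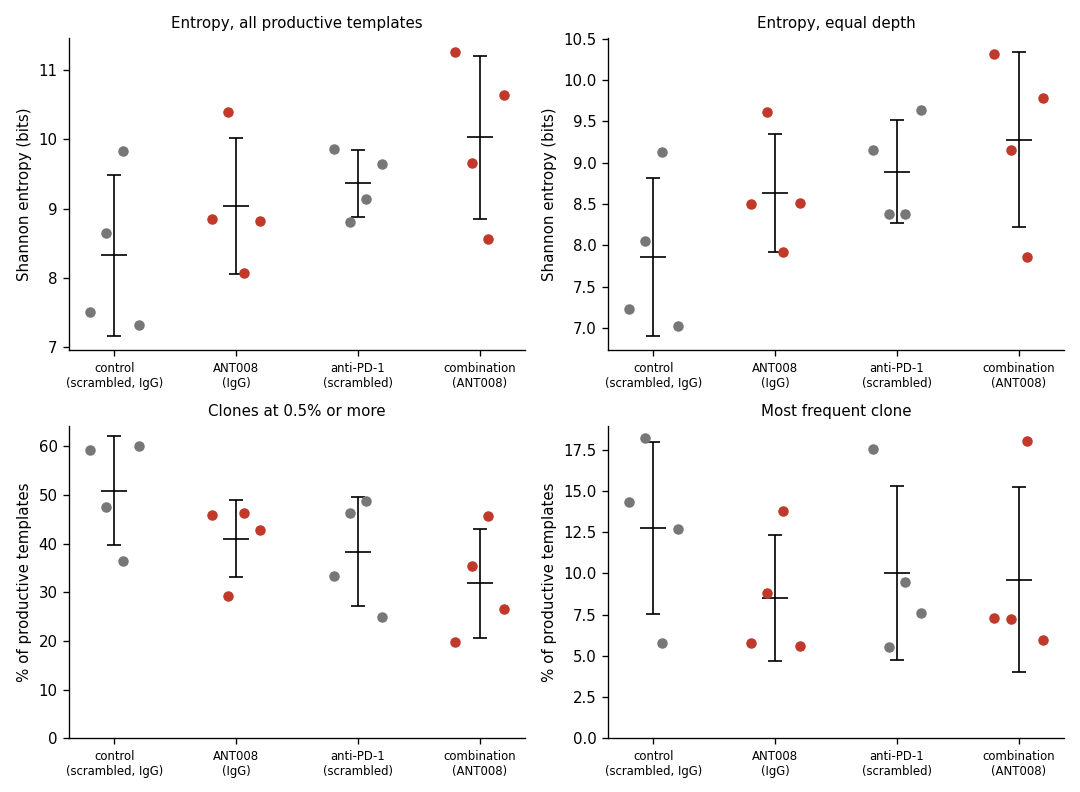
Shannon entropy from all productive templates and at equal depth (bits), and the percent of productive templates in clones at 0.5% or more and in the most frequent clone; points are mice, 4 per group, red for ANT008 and grey for scrambled peptide, bars are mean and SD. Entropy was higher by 0.690 bits in the ANT008 arm, and all 8 ANT008 mice lay below the scrambled median of 47.0% for clones at 0.5% or more, with overlapping arms in every panel.

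Expanded clones, those with 0.5% or more of a sample's productive templates, showed the smallest p of the 24 single-value results. They took up 19.8% to 46.2% of templates in the ANT008 arm, with a median of 39.1%, and 25.0% to 60.1% in the scrambled arm, with a median of 47.0%. Every ANT008 mouse lay below the scrambled median, yet 3 of the 8 lay above the scrambled mean. The means were 36.5 ± 10.2% and 44.6 ± 12.3%, a difference of -8.16 percentage points (SE 5.24, exact permutation p = 0.129, adjusted p = 0.855). The difference was -9.83 points within IgG and -6.50 points within anti-PD-1.

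The most frequent clone held 5.62% to 18.0% of templates in ANT008 mice (median 7.26%) and 5.51% to 18.2% in scrambled peptide mice (median 11.1%). Only 2 of 8 ANT008 mice, ANT008 replicate 3 and combination replicate 3, had a larger leading clone than the scrambled median. The mean difference was -2.33 points (SE 2.51, exact permutation p = 0.361), and for the 10 most frequent clones together it was -3.28 points (SE 4.06, exact permutation p = 0.422). Clonality, which is 0 for an even repertoire and 1 for a single clone, was 0.258 ± 0.0582 in the ANT008 arm and 0.300 ± 0.0784 in the scrambled arm (exact permutation p = 0.226). The inverse Simpson index, an effective number of clones that weights the large ones, was higher by 0.47 on the log2 scale with ANT008 (SE 0.43, exact permutation p = 0.278).

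The number of distinct productive rearrangements depends on depth, and the 2 settings are given side by side. From all templates it was higher by 0.18 on the log2 scale in the ANT008 arm (SE 0.40, exact permutation p = 0.667), and at equal depth by 0.30 (exact permutation p = 0.128). The share of rearrangements seen as a single template was 73.4 ± 5.76% with ANT008 and 73.7 ± 4.41% with the scrambled peptide (exact permutation p = 0.916). Beneath that near equality the antibodies differed in direction: ANT008 mice were 5.26 points lower than controls, and combination mice 4.72 points higher than anti-PD-1 mice. This difference of 9.97 points between the antibodies had an exact permutation p of 0.0384 as computed and 0.130 at equal depth, where it was 8.61 points. It was 1 of 19 such differences tested, and its Benjamini-Hochberg adjusted p over them was 0.729.

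**Figure D2:**
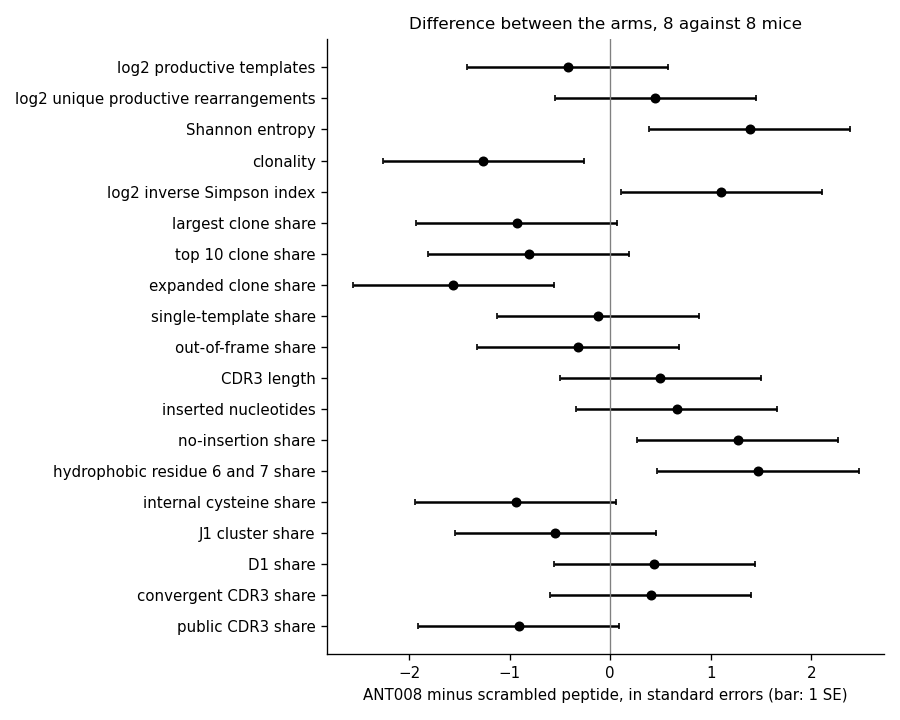
Difference ANT008 minus scrambled peptide for 19 repertoire measures, each divided by its standard error (horizontal axis), with bars of 1 standard error. Expanded clone share lies farthest below 0, hydrophobic residue share and entropy farthest above it, and no measure reached an adjusted p under 0.855.

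Features of the CDR3 itself were compared next. The mean CDR3 length was 13.8 ± 0.139 residues with ANT008 and 13.8 ± 0.323 with the scrambled peptide, a difference of 0.0567 residues (exact permutation p = 0.644). Nucleotides added at the joints, the work of terminal deoxynucleotidyl transferase, averaged 3.33 ± 0.238 per template in the ANT008 arm and 3.22 ± 0.372 in the scrambled arm (exact permutation p = 0.514). These values of 8 mice against 8 were close in size and overlapped.

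Rearrangements without any added nucleotide, which are common in fetal life and recur between individuals, made up 5.99% to 20.4% of templates in the ANT008 arm (median 8.84%) and 4.25% to 14.9% in the scrambled arm (median 7.01%). The value for combination replicate 4, the highest, included its leading clone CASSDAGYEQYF at 5.95% of templates (95% Wilson interval 5.72 to 6.20%), which carried no added nucleotide. Of the ANT008 mice 7 of 8 lay above the scrambled median, with a mean difference of 2.21 points (SE 1.74, exact permutation p = 0.231). Without combination replicate 4 it was 0.947 points.

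Hydrophobic residues at CDR3 positions 6 and 7, counted from the first cysteine, are known for favouring self-reactivity. Templates with both positions hydrophobic ranged from 1.28% through a median of 2.98% to 3.78% in the ANT008 arm and from 0.689% through 1.99% to 3.09% in the scrambled arm. The mean was higher by 0.662 points with ANT008 (SE 0.450, exact permutation p = 0.148), and 3 of 8 ANT008 mice lay above every scrambled mouse. Counting each rearrangement once instead turned the difference in hydrophobic residues to -0.0842 points (exact permutation p = 0.631).

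CDR3s with a second cysteine made up 2.22% to 13.2% of templates in ANT008 mice (median 3.47%) and 2.79% to 22.9% in scrambled peptide mice (median 5.78%), with 7 of 8 ANT008 mice below the scrambled median. Between 80.7% and 98.0% of these templates in a sample used Trbv1, whose germline sequence itself encodes that cysteine. The highest value in each arm, control replicate 2 and ANT008 replicate 2, belonged to mice whose leading clone was a 16-residue Trbv1 and Trbj2-2 rearrangement, at 18.2% and 8.82% of templates. The mean difference was -2.52 points (SE 2.68, exact permutation p = 0.420). It was -0.277 points without control replicate 2 and -3.84 points without ANT008 replicate 2.

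The origin of the joint was also compared. Templates with the D gene Trbd1, among those with a D gene assigned, averaged 55.2 ± 8.85% with ANT008 and 53.5 ± 7.94% with the scrambled peptide (exact permutation p = 0.676). The Trbj1 cluster, which lies upstream of Trbd2 and is normally joined to Trbd1, held 27.1 ± 3.91% and 28.5 ± 5.16% (exact permutation p = 0.579). Out-of-frame templates, carried on a cell's other allele without selection for function, were 27.8 ± 3.06% and 28.5 ± 5.11% of all templates (exact permutation p = 0.749). CDR3s encoded by more than 1 rearrangement of a sample were 6.92 ± 0.716% and 6.74 ± 0.991% of its CDR3s (exact permutation p = 0.694).

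V gene usage was tested with edgeR's quasi-likelihood test on template counts, with the antibody as a term. Of 33 V genes, 0 passed an adjusted p of 0.05, a share called of 0%. At an unadjusted p under 0.05 there were 2 genes, Trbv14, lower with ANT008, and Trbv13-1, higher. DESeq2 also called 0, with 1 gene at an unadjusted p under 0.05. Names follow the GRCm38.p6 annotation, to which all 33 matched, and which lists some of them as pseudogenes. Among the 25 V genes with a mean of 10 or more templates, 0 passed as well.

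Trbv14 had the smallest p. It took up 1.51% to 12.3% of productive templates in ANT008 mice with a median of 2.31%, and 1.72% to 19.5% in scrambled peptide mice with a median of 10.3%. In 7 of 8 ANT008 mice it lay below the scrambled median, and the 4 combination mice held 1.71% to 2.88%. ANT008 over scrambled peptide, its log2 fold change came to -1.38 with an SE of 0.52 (edgeR adjusted p = 0.459). A separate peptide term for each antibody was then fitted over all 16 samples. The log2 fold change was -0.39 within IgG (edgeR adjusted p = 0.893) and -2.37 within anti-PD-1 (edgeR adjusted p = 0.00669). The difference between these did not pass the test (edgeR adjusted p = 0.267). Trbv14 clones led 4 of the 8 scrambled repertoires, 3 of them in anti-PD-1 mice, and 1 of the 8 ANT008 repertoires. Without each sample's 10 most frequent rearrangements it was -0.40 (edgeR adjusted p = 0.296).

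Trbv13-1 was next, with 4.13% to 16.6% of templates in ANT008 mice (median 6.98%) and 2.35% to 7.37% in scrambled peptide mice (median 4.88%). In 4 of 8 ANT008 mice it lay above every scrambled mouse. Its log2 fold change came to 0.73 with an SE of 0.33 (edgeR adjusted p = 0.596), and counting each rearrangement once it was -0.04. Trbv15 followed with a median of 2.52% against 1.70%, and 7 of 8 ANT008 mice above the scrambled median (log2 fold change 0.49, edgeR adjusted p = 0.607). Trbv10, which the annotation lists as a pseudogene, was rare at a median of 0.0173% against 0.0145%. Its log2 fold change of -1.74 rested on anti-PD-1 replicate 3 at 0.665%. Without that mouse it was 0.12.

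**Figure D3:**
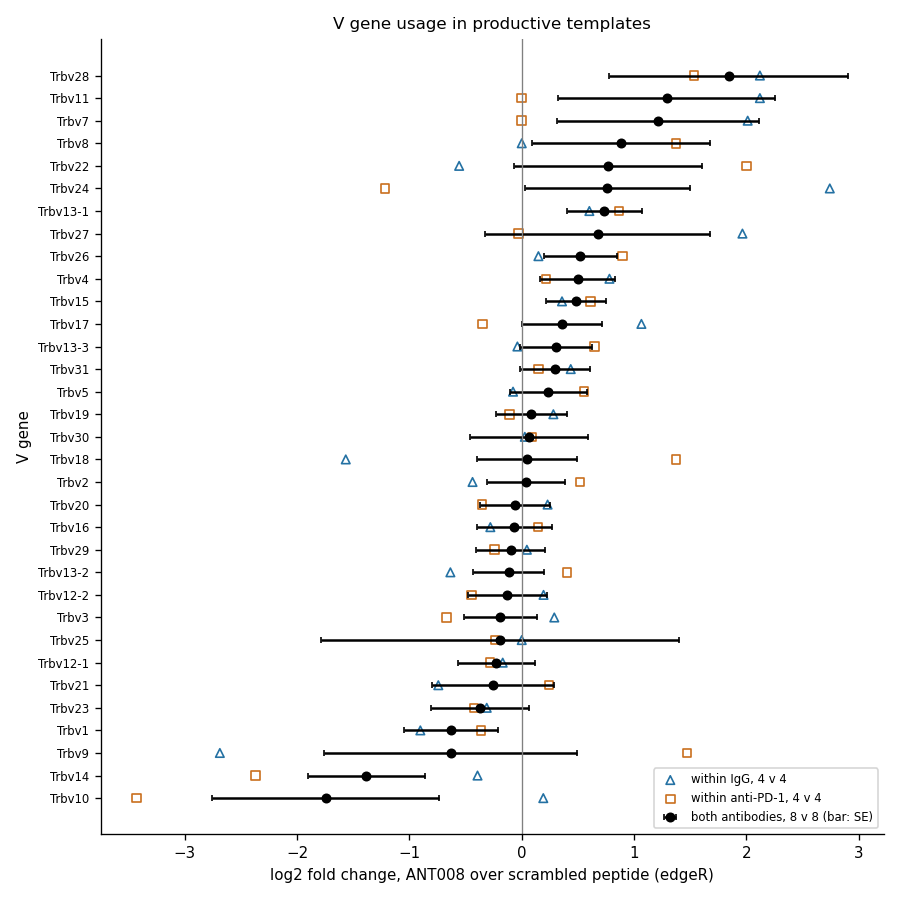
Log2 fold change of each V gene's share of productive templates, ANT008 over scrambled peptide, by edgeR; black points with SE bars are 8 against 8 mice, blue triangles and orange squares the 4 against 4 within IgG and within anti-PD-1 (0 where a gene had no template in that stratum). Trbv14 (-1.38) and Trbv13-1 (0.73) had the smallest p, and Trbv24 was the 1 gene whose difference between the antibodies passed the test.

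The 4 V genes with the highest mean share were Trbv13-3 (9.31%), Trbv3 (8.36%), Trbv19 (8.16%) and Trbv16 (7.77%). Their log2 fold changes were between -0.19 for Trbv3 and 0.30 for Trbv13-3, each smaller than its SE, with edgeR adjusted p-values of 0.755 or more. Trbv13-3 ranged from 5.44% to 22.3% in ANT008 mice and from 6.26% to 9.92% in scrambled peptide mice, with 3 ANT008 mice above and 2 below all scrambled mice.

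V genes were also read in lists. Of the 5 V genes favoured by invariant natural killer T cells (Trbv13-1, Trbv13-2, Trbv13-3, Trbv29 and Trbv1), 0 passed the test, and their median log2 fold change was -0.10 against 0.06 over all 33 genes. Together they held 19.9% to 44.8% of templates in ANT008 mice (median 34.2%) and 24.0% to 49.9% in scrambled peptide mice (median 29.0%). Of the 3 V genes common in mucosal-associated invariant T cells (Trbv13-2, Trbv13-3 and Trbv19), 0 passed, with a median log2 fold change of 0.09 and a summed share of 24.2% against 21.8% at the medians. Of Trbv12-1, Trbv12-2 and Trbv16, which endogenous superantigens delete in mouse strains with I-E but not in C57BL/6, 0 passed and all 3 log2 fold changes were between -0.23 and -0.07. Trbv31, which lies downstream in inverted orientation, was at a median of 1.53% against 1.29% (log2 fold change 0.29, edgeR adjusted p = 0.755).

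Whether the effect of ANT008 on a V gene depended on the antibody was tested in the same model. Of 33 genes 1 passed, a share called of 3.03%, and it was Trbv24. Controls held 0.397% to 0.946% Trbv24 templates, and ANT008 mice 0.776%, 1.44%, 8.18% and 8.29%. Anti-PD-1 mice held 0.677%, 0.889%, 0.905% and 6.10%, and combination mice 0.707% to 1.16%. The high values thus lay in 2 mice given ANT008 with IgG and in 1 given anti-PD-1 with the scrambled peptide. A peptide term for each antibody, fitted over all 16 samples, gave log2 fold changes of 2.74 within IgG (edgeR adjusted p = 0.000975) and -1.22 within anti-PD-1 (edgeR adjusted p = 0.318). The difference between these was -3.96 with an SE of 0.83 (edgeR adjusted p = 0.000439). Over both antibodies the log2 fold change was 0.76 with an SE of 0.73 (edgeR adjusted p = 0.755). Without anti-PD-1 replicate 3 Trbv24 was the 1 gene that passed over both antibodies, with a lowest edgeR adjusted p of 0.0400.

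**Figure D4:**
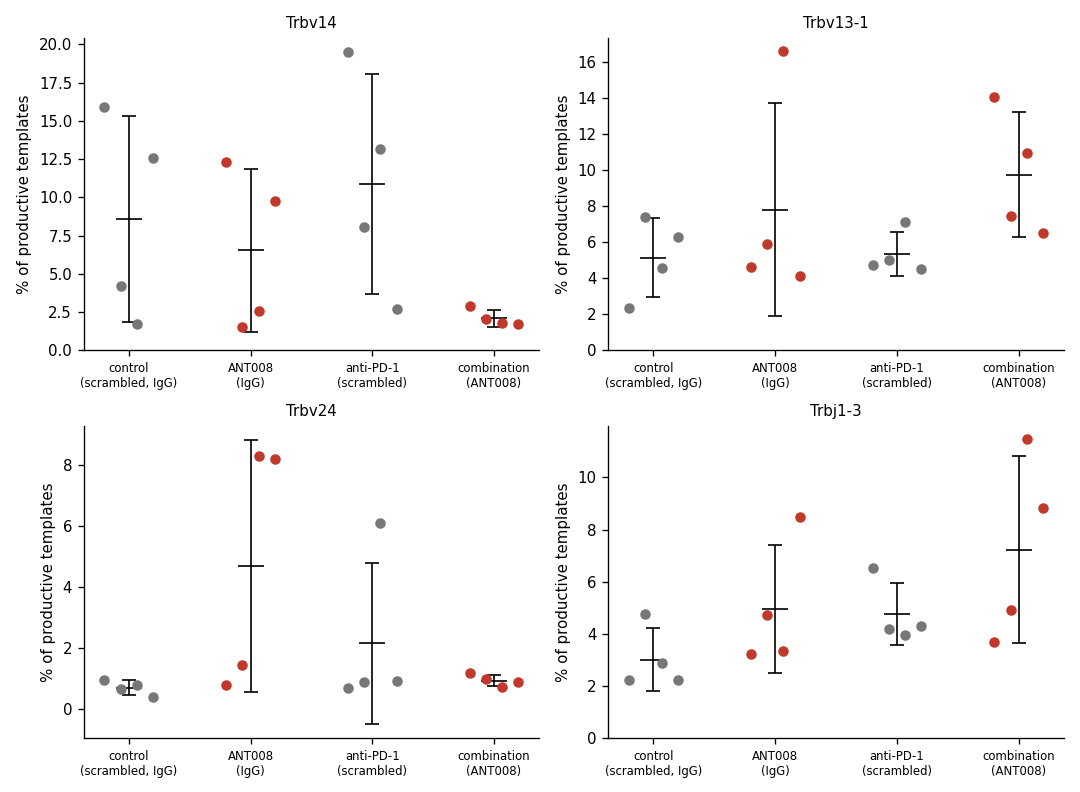
Percent of productive templates using Trbv14, Trbv13-1, Trbv24 and Trbj1-3 in each mouse, 4 per group, red for ANT008 and grey for scrambled peptide, with mean and SD. Trbv14 was 1.71% to 2.88% in the 4 combination mice, and Trbv24 exceeded 6% in 2 ANT008 mice and 1 anti-PD-1 mouse.

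J gene usage was tested the same way, and of 14 J genes 0 passed, a share called of 0%, with 1 at an unadjusted p under 0.05. DESeq2 called 0 too, with 0 at an unadjusted p under 0.05. That J gene was Trbj1-3, at 3.22% to 11.5% in ANT008 mice (median 4.82%) and 2.22% to 6.52% in scrambled peptide mice (median 4.08%), and its log2 fold change was 0.66 with an SE of 0.29 (edgeR adjusted p = 0.397). Trbj2-5 had a median of 9.95% against 6.74%, with 7 of 8 ANT008 mice above the scrambled median (log2 fold change 0.47, edgeR adjusted p = 0.397). Trbj1-6 had a median of 1.53% against 1.24%, and 4 ANT008 mice above every scrambled mouse (log2 fold change 0.52, edgeR adjusted p = 0.397). The most used J genes were Trbj2-7, at a mean of 29.0% of templates, and Trbj2-1, at 14.2%, with log2 fold changes of -0.30 and 0.28. The effect of ANT008 did not pass the test of a difference between antibodies for any J gene, also a share called of 0%, with 2 at an unadjusted p under 0.05.

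Sharing of clones between mice was compared at the level of the CDR3 amino acid sequence. The ANT008 arm held 53443 distinct productive CDR3s and the scrambled arm 47426, for 92981 in all. Among the 50 most frequent CDR3s of each mouse, 21 were shared by 2 or more of the 8 ANT008 mice and 20 by 2 or more scrambled peptide mice, and 9 were in both sets (exact permutation p = 0.886 for the difference). The Morisita-Horn index, which is 0 for repertoires with no CDR3 in common and 1 for identical ones, averaged 0.0426 between mice of the ANT008 arm, 0.0281 between mice of the scrambled arm and 0.0425 between mice of different arms. Neither the difference between arms (exact permutation p = 0.618) nor that of pairs within against pairs between arms (exact permutation p = 0.316) passed the test. The most similar pair, at 0.283, was ANT008 replicate 4 and anti-PD-1 replicate 2, the mice whose leading clones both encode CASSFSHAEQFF. The rearrangement of the ANT008 mouse held 5.62% of its templates and that of the anti-PD-1 mouse 5.51%.

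**Figure D5:**
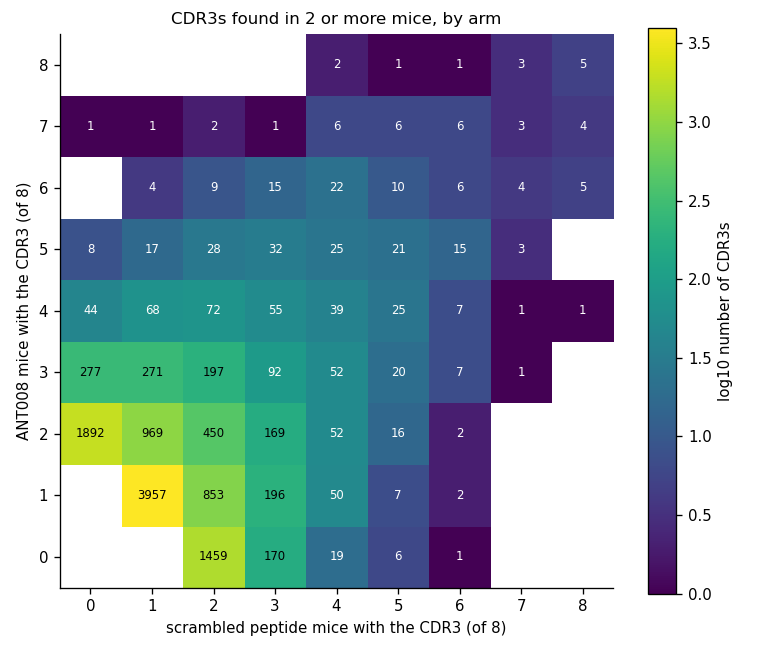
Number of productive CDR3s by how many of 8 scrambled peptide mice (horizontal) and 8 ANT008 mice (vertical) held them, coloured by log10 number; CDR3s of a single mouse are left out. There were 9 CDR3s in 5 or more ANT008 mice and 0 scrambled mice, and 7 the other way. Over exchanged peptide labels either count averaged 6.94.

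CDR3s found in 8 or more of the 16 mice numbered 311, and they held 9.39 ± 4.26% of productive templates with ANT008 and 11.2 ± 3.10% with the scrambled peptide (SD, n = 8, exact permutation p = 0.360). The shared CDR3s with the highest mean share were found in both arms. The 15-residue Trbv16 and Trbj2-7 CDR3 was in 7 of 8 ANT008 mice and 8 of 8 scrambled peptide mice, at medians of 0.474% and 1.12%, with a highest value of 9.14% in control replicate 1. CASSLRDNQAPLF was in 5 and 7 mice and reached 5.83% in ANT008 replicate 1, 4.59% in combination replicate 4 and 5.92% in anti-PD-1 replicate 3. It was encoded by 51 rearrangements, 1 of which held 61.6% of its templates. Low-count companions of larger clones, described at the end, were not merged for this count. The rearrangement printed for ANT008 replicate 1 was found in 7 other mice.

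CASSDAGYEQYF was in 8 of 8 ANT008 mice and 6 of 8 scrambled peptide mice, with medians of 1.15% and 0.133%. Its highest values were 6.04% in combination replicate 4 and 5.38% in control replicate 4, and 7 of 8 ANT008 mice lay above the scrambled median (log2 fold change 0.81, SE 2.19, edgeR adjusted p = 0.957). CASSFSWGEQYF was large in 2 mice, at 14.5% of templates in control replicate 1 (95% Wilson interval 14.0 to 14.9%) and 2.84% in ANT008 replicate 1.

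Each of the 2188 public CDR3s, those in 4 or more of the 16 mice, was tested with edgeR, and 0 passed, a share called of 0%. At an unadjusted p under 0.05 there were 249 by edgeR and 35 by DESeq2, which also called 0. Log2 fold changes were above 0 for 59.3% of them with edgeR and for 44.1% with DESeq2, and the median was 0.32 and -0.19. The scaling differed: edgeR took productive templates as library size, while DESeq2 used size factors resting on the 5 CDR3s found in all 16 mice. The lowest edgeR adjusted p was 0.129, and 45 CDR3s shared it. The 6 with the smallest unadjusted p are given as a description, since they reached 4 mice wholly or mainly through the arm in which they were higher. The 14-residue Trbv13-1 and Trbj2-2 CDR3 was the one higher with ANT008: it made up 4.17% of templates in combination replicate 3, 0.987% in ANT008 replicate 2 and 0.00599% in combination replicate 1, and 1 template in control replicate 2, and its log2 fold change was 9.45 with an SE of 2.73. The other 5 were found in no ANT008 mouse. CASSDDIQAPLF was in 6 of 8 scrambled peptide mice at 0.0385% to 0.289%, 207 templates in all. Against the limit of 3 templates over the whole ANT008 arm that a count of 0 allows, its pooled share was at least 58.0-fold higher in the scrambled arm, and at least 28.8-fold without control replicate 2, which held 119 of the templates. These folds allow for counting error in pooled templates only, not for the spread between mice. Nor do they allow for the choice of this CDR3 by the smallest p of the 2188, so they describe it and are no test. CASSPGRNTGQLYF (4 mice, 40 templates), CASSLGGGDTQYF (4 mice, 24 templates), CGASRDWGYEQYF (4 mice, 25 templates) and a 15-residue Trbv4 and Trbj2-3 CDR3 (5 mice, 42 templates) were at most 0.115% of any sample.

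CDR3s confined to 1 arm were counted last. In 5 or more of 8 ANT008 mice and 0 of 8 scrambled peptide mice there were 9 CDR3s, and 7 in the reverse (exact permutation p = 0.702 and p = 1 against a mean of 6.94 over the exchanged labels). At equal depth the ANT008 count averaged 3.30 against a mean of 1.38 over exchanged labels (exact permutation p = 0.010), and the scrambled count 1.30 (exact permutation p = 0.905). The rule stayed at 5 or more mice when 1 mouse was left out. A count therefore cannot rise without a mouse of its own arm, nor fall without one of the other arm. Leaving out 1 mouse at a time moved the ANT008 count between 2, when ANT008 replicate 2 was left out, and 17, when it was anti-PD-1 replicate 3. It was 5 when ANT008 replicate 4 was left out and 3 or 4 for each combination mouse. The scrambled count was 1 when control replicate 2 was left out, 2 for control replicate 3, and 3 for control replicate 1 and for anti-PD-1 replicates 1, 2 and 3. Because the arm decided which CDR3s these were, their levels are given without a test. The most widespread in the ANT008 arm was the 15-residue Trbv19 and Trbj2-3 CDR3, in 7 of 8 mice with 14 templates in all, from 11 different rearrangements. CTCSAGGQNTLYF, a Trbv1 CDR3, and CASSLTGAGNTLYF were in 5 mice with 14 templates each. In the scrambled arm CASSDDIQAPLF led with 6 mice, followed by the 15-residue Trbv4 CDR3 and a 15-residue Trbv29 and Trbj2-1 CDR3, each in 5 mice. Apart from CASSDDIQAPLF, these sequences were rare: the highest share of any ANT008-restricted CDR3 in a sample was 0.0433%. Large clones were last compared as nucleotide sequences. Of 278 clones with 200 or more templates in a sample, 182 were in no other sample, 28 had at most 1 template in any other, and 68 had 2 or more templates in another.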

How the data were processed

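TCRβ rearrangements of 16 samples were deposited as tables made by Adaptive Biotechnologies with the immunoSEQ assay, in which V and J primers amplify the CDR3 region and a synthetic repertoire corrects for unequal amplification. The deposited template counts are whole-number estimates of starting molecules, and primer bias that the correction leaves would change V and J shares in both arms alike. The deposited fraction of productive templates and the deposited entropy score of each sample were recomputed from the counts, and entropy was equal to within 4.82e-07 bits. Read columns were empty. The labels name total RNA and the study's text DNA in one place, so which molecule a template stands for is unsettled. The aligner and genome build are not given in the sources used here.

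Samples were grouped by the peptide and antibody in their labels. Single values were tested with an exact permutation test over peptide labels within antibody, two-sided, with Benjamini-Hochberg adjustment over 24. Gene and CDR3 counts were tested with edgeR 4.0.16 (quasi-likelihood, antibody plus peptide, library size the productive templates). DESeq2 1.42.0 was an alternative that used its own median-ratio size factors instead of productive templates. Templates without a V or J gene made up at most 0.0433% and 0.257% and stayed out of those tests. The methods of the study used analysis of variance with Dunnett's test, which gives no effect of the peptide over both antibodies. Named were the V genes with the 4 smallest p and the 4 highest mean shares, the J genes with the 3 smallest p and the 2 highest shares, the public CDR3s with the 4 highest shares and the 6 smallest p, and 3 arm-restricted CDR3s per arm. Members and lists were chosen with earlier results of these data known. Intervals are 95% Wilson intervals and floors are 3 templates, both covering counting error only. Scripts were tested on simulated data. They ran in R 4.3.3 and in Python 3.11.15 (scipy 1.17.1, matplotlib 3.10.9, pandas 2.3.3, numpy 2.4.6).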

Additional observations from a re-analysis of the deposited data

Results flagged for a closer look

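The effect of ANT008 on 2 results was set apart by a test of the difference between antibodies, and Trbv24 alone passed after adjustment. It had a log2 fold change that was lower by 3.96 (value -3.96, edgeR adjusted p = 0.000439) with anti-PD-1 than with IgG. The difference in single-template share was 9.97 points higher with anti-PD-1 (exact permutation p = 0.0384, Benjamini-Hochberg adjusted p = 0.729 over 19 such tests), and 8.61 points at equal depth (exact permutation p = 0.130).

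In 17 of 84 arms examined, 8 mice each, the gap between 1 mouse and its nearest neighbour exceeded the 95% critical value of Dixon's test, which chance passes in about 1 of 20 groups (5%) of normally distributed values. Several of the 17 were CDR3s chosen for a high share or a small p and at 0 in most mice, to which that rate does not apply. Anti-PD-1 replicate 4 had the fewest productive templates, 12.81 on the log2 scale, with its neighbour at 14.67, and the highest Trbv15 share of the scrambled arm, 2.74%. Combination replicate 4 stood apart for rearrangements without added nucleotides, at 20.4%, and for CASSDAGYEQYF, at 6.04%, which control replicate 4 also held at 5.38%. CDR3s with a second cysteine reached 13.2% in ANT008 replicate 2 and 22.9% in control replicate 2, the next values being 5.25% and 6.89%. Anti-PD-1 replicate 3 held 0.665% Trbv10, and ANT008 replicate 2 held 3.22% Trbj1-6. The other mice apart were apart for single CDR3s: the 15-residue Trbv16 CDR3 at 4.32% in ANT008 replicate 4 and 9.14% in control replicate 1, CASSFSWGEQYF at 2.84% in ANT008 replicate 1 and 14.5% in control replicate 1, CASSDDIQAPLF at 0.289% in control replicate 2, the 14-residue Trbv13-1 and Trbj2-2 CDR3 at 4.17% in combination replicate 3 and 0.00243% (1 template) in control replicate 2, and the 15-residue Trbv4 CDR3 at 0.115% in control replicate 1.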

How the results depend on the processing

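Of 27 results, none passed its threshold as reported, so a change of sign here is a change in the direction of a value that had not passed. Differences between antibodies in V and J gene usage, that of Trbv24 included, were not among the 27. These and the peptide terms for each antibody were not rerun under the alternatives. No direction changed for entropy, clonality, inverse Simpson index, the shares of the most frequent and of expanded clones, rearrangements without added nucleotides, second cysteines or public CDR3s under any alternative run. Within anti-PD-1 alone the difference was 0.43 for log2 productive templates, 0.144 points for the top 10 share, 4.72 for the single-template share, 0.640 for the out-of-frame share, -4.44 for Trbd1, -0.00108 for overlap within arms and 0.00620 for overlap within against between arms. Within IgG alone it was -0.32 for log2 unique rearrangements, -0.115 residues for CDR3 length, -0.242 points for convergent CDR3s and -0.000934 for overlap within arms. Equal depth gave 2.44 points for the single-template share, -0.0530 for convergent CDR3s and -0.150 shared top CDR3s, and the arm-restricted counts were 3.30 (exact permutation p = 0.010, 1 of 22 values at equal depth under 0.05) and 1.30. Counting each rearrangement once gave -0.00218 for CDR3 length, -0.0386 for inserted nucleotides, -0.0842 for hydrophobic residues, -0.372 for Trbd1, and log2 fold changes of -0.042 for Trbv13-1, -0.025 for Trbv15, -0.0035 for Trbv13-3 and 0.025 for Trbv16. Without the 10 most frequent rearrangements CDR3 length differed by -0.0758, inserted nucleotides by -0.0566 and the Trbj1 cluster by 0.293, with log2 fold changes of -0.085 for Trbv13-3, 0.037 for Trbv3 and -0.0093 for Trbj2-1. Out-of-frame rearrangements gave 1 V gene call, Trbv20, higher (edgeR adjusted p = 0.0151), with -0.18 for Trbv13-1 and -0.57 for Trbv13-3. The top 100 CDR3s gave a difference of -5 shared CDR3s. Asking for 4 of 8 mice gave 53 and 26 arm-restricted CDR3s (exact permutation p = 0.719 and 0.468), against a mean of 44.0 over exchanged labels. For 6 of 8 mice there were 1 and 1, against a mean of 0.920. For 2 templates per mouse, chosen after seeing the data, there were 3 and 2, against a mean of 1.71. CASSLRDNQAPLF, at 0.03 as reported, had log2 fold changes of -0.59 with DESeq2 and -0.15 without the antibody term. Merging the companions of larger clones, also chosen after seeing the data, changed no direction among the 7 results recomputed. The cause of these changes was not tested.

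Replicate numbers were not used to pair the samples in the tests as reported, since not every same-numbered pair correlated above 0.1. That does not show that the samples were unpaired. The deviations of V gene shares from the group means correlated between -0.0773 and 0.569 over the 8 same-numbered pairs, 3 of them above 0.1. The median was -0.0162 over pairs of unlike number, and 6 of 16 samples correlated best with their own number. The numbers follow the sample titles, and the names inside the files carry other numbers, so what a shared number stands for is not known. With the replicate block there was 1 V gene call, Trbv14 (log2 fold change -1.24, edgeR adjusted p = 0.0199, against 0.459 without the block). The second cysteine difference of -2.52 points had an exact permutation p of 0.0469 with the block (the smallest possible is 0.00781) and 0.420 without it. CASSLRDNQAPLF had a log2 fold change of -5.15 with the block.

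Leaving out 1 mouse at a time kept the sign but moved the second cysteine difference between -3.84 and -0.277 points, the no-insertion share between 0.947 and 3.12, the most frequent clone between -3.73 and -1.08, entropy between 0.462 and 0.942 and expanded clones between -10.6 and -6.16. It moved the V gene calls between 0 and 1, the ANT008-restricted count between 2 and 17 and the scrambled-restricted count between 1 (without control replicate 2) and 9, and changed signs within these ranges: log2 productive templates -0.49 to 0.066, log2 unique rearrangements -0.054 to 0.36, single-template share -1.66 to 0.554, out-of-frame share -1.70 to 0.535, CDR3 length -0.0288 to 0.115, inserted nucleotides -0.00477 to 0.168, Trbd1 -0.585 to 3.62, convergent CDR3s -0.0877 to 0.437, shared top CDR3s -4 to 7, overlap within arms -0.00273 to 0.0248, and log2 fold changes of -2.31 to 0.12 for Trbv10, -0.26 to 0.082 for Trbv16, -0.12 to 0.27 for Trbv19, -5.86 to 3.18 for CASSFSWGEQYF, -1.37 to 0.15 for the 15-residue Trbv16 CDR3 and -3.41 to 0.63 for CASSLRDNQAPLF. The direction in which an arm-restricted count could move was set by the arm of the mouse left out. The smallest sample held 7180 productive templates, and a p that misses the threshold does not show that the arms did not differ.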

Other observations

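Among CDR3 lengths from 9 to 19 residues, the 10-residue class stood out, and it was chosen after the values of all 11 classes were seen. It took up 0.432% to 1.38% of productive templates in ANT008 mice (median 0.826%) and 0.231% to 0.669% in scrambled peptide mice (median 0.341%), with all 8 ANT008 mice above the scrambled median and 6 of 8 above every scrambled mouse. All 8 ANT008 mice also lay above the scrambled median for 11 and for 17 residues (exact permutation p = 0.171 and 0.256). The mean difference was 0.468 points (exact permutation p = 0.00408, adjusted over the 11 lengths 0.0449, and 0.143 when joined with the 24 single values). Counting each rearrangement once, the difference was 0.0470 points (exact permutation p = 0.556). Without each sample's 10 most frequent rearrangements it was 0.545 points of the templates that remained (exact permutation p = 0.00571, adjusted 0.0629). The largest 10-residue clone held 0.581% of templates in ANT008 replicate 3, 0.600% in combination replicate 3 and 0.746% in combination replicate 4. Of these only that of combination replicate 4 was among its sample's 10 most frequent rearrangements. Leaving those out therefore kept the clones of ANT008 replicate 3 and combination replicate 3, over a smaller total. It cannot show whether the difference rested on large 10-residue clones, and that was not tested. The 13-residue class was lower by 6.06 points with ANT008 (exact permutation p = 0.0547, adjusted 0.301).

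In every sample some rearrangements shared their CDR3 nucleotides with one that had at least 20 times their templates, differing in the V part before the CDR3. They made up 1.11% to 6.85% of productive rearrangements and 0.443% to 0.949% of templates. Control replicate 1's leading Trbv14 clone of 3730 templates, for example, had 21 such companions of 1 to 2 templates, of which 13 were assigned another V gene. The clone and a companion of 2 templates assigned to Trbv13-2 are printed side by side.
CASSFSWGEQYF, 3730 templates: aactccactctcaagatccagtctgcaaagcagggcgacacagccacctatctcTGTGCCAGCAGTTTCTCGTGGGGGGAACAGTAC
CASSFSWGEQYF, 2 templates: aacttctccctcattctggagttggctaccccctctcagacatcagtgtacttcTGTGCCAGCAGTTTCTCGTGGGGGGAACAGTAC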
